A study of Mus musculus with 6 samples.

Results

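The 8 genes described here, out of 55450 genes in the matrix, encode or control the MHC class II route of antigen presentation, and they were chosen by name: H2-Aa, H2-Ab1, H2-Eb1, Cd74, Ciita, H2-DMa, H2-DMb1 and H2-Oa. Their transcripts were counted in single cells of mouse aortic tissue, dissociated and sequenced on the 10x Genomics droplet platform, where each captured transcript is counted once as a unique molecular identifier (UMI). The samples were 3 samples labelled Best3FL/FL, which carry floxed copies of the bestrophin gene Best3, and 3 labelled Best3SMKO, a label the sources used here do not spell out. The series title places the question in vascular smooth muscle and aortic disease. Age, sex, strain, the Cre driver and the number of animals per sample are not given in these sources. The 6 barcode suffixes in the matrix separate 6 libraries but match no sample label. No library was therefore assigned to a genotype, no knockout was compared with a control, and each library is given by its own value. Nothing below is a test, and no p-value is given.

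MHC class II molecules are pairs of an alpha and a beta chain that carry peptides from the endosome to the cell surface, where CD4 T cells read them. H2-Aa and H2-Ab1 encode the chains of I-A, and H2-Eb1 encodes the beta chain of I-E. The invariant chain, encoded by Cd74, fills the groove until it is cut away, and the H2-DM dimer (H2-DMa with a beta chain from H2-DMb1 or H2-DMb2) then exchanges its last fragment for an antigenic peptide. H2-O, built from H2-Oa and H2-Ob, restrains H2-DM. Ciita encodes the coactivator that switches these genes on together through a promoter module known as the X and Y boxes. Dendritic cells, B cells and macrophages carry the system constantly, while endothelium and other cells can gain it under interferon gamma.

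All but Ciita and Cd74 lie in the class II region of chromosome 17 (GRCm38, GENCODE M21). These are H2-Oa (ENSMUSG00000024334, plus strand, 34092340 to 34095234), H2-DMa (ENSMUSG00000037649, plus strand, 34119541 to 34139101), H2-DMb1 (ENSMUSG00000079547, plus strand, 34153072 to 34160230), H2-Ab1 (ENSMUSG00000073421, plus strand, 34257689 to 34269419), H2-Aa (ENSMUSG00000036594, minus strand, 34282744 to 34287823) and H2-Eb1 (ENSMUSG00000060586, plus strand, 34305867 to 34316674). Ciita (ENSMUSG00000022504) is on chromosome 16 (plus strand, 10480059 to 10528418) and Cd74 (ENSMUSG00000024610) on chromosome 18 (plus strand, 60803848 to 60812652). All 8 are annotated as protein-coding. H2-DMb2, a near-identical neighbour of H2-DMb1, lies at 34143307 to 34151555, and how reads shared by both copies were counted is not stated, so values of H2-DMb1 are uncertain to that extent.

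The stretches below are shown because the X and Y boxes are the promoter module through which Ciita is known to act. They come from RefSeq promoter windows on GRCm38.p6, which were found for 5 of the 8 genes, and 4 of these are shown. Each runs 5′ to 3′ on the strand of its gene, and capitals mark matches to the letters searched: GATTGG (Y box), AGNAAC (X box) and TGATG (X2 box), searched on both strands. Where matches to the same letters overlap, as for the X2 letters of H2-DMb1 and H2-Eb1, the first is marked.

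H2-Oa, chr17:34092285-34092350, plus strand: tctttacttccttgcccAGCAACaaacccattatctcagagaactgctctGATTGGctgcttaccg

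H2-DMb1, chr17:34153079-34153144, plus strand: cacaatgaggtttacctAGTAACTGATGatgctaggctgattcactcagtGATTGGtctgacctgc

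H2-Aa, chr17:34287857-34287922, minus strand: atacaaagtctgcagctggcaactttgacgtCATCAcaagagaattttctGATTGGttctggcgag

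H2-Eb1, chr17:34305757-34305822, plus strand: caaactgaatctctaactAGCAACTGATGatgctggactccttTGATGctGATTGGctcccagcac

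In H2-DMb1 and H2-Eb1 the X box letters run straight into the X2 box letters without overlap, and in H2-Aa the X2 letters match on the opposite strand. Only these 2 of the 4 stretches hold all 3 sets of letters, since H2-Aa has no X box match and H2-Oa no X2 match. The Y box letters lay 44 bases upstream of the RefSeq start site in H2-Oa, 62 in H2-DMb1, 49 in H2-Aa and 60 in H2-Eb1. In H2-DMa, whose sequence is not shown, they lay 199 bases upstream, and the X box letters matched only on the opposite strand beside the start site. For H2-Oa, H2-DMb1 and H2-DMa the RefSeq start site differs from the GENCODE gene start given above. The H2-DMb1 stretch and the H2-DMa window thus lie within the gene bounds given above. The Y box letters occurred in all 5 member genes with a window and in 5292 of 32851 windows of the same length (16.1%). The X box letters occurred in 4 member genes and 48.1% of all windows, and the X2 letters in 4 and 39.3%. Such matches describe the letters and are not shown to be used sites.

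The matrix held 60871 barcodes and 399340994 UMIs, with 7475 to 16269 barcodes and median depths of 4708 to 6289.5 UMIs per library. Filtering (500 or more detected genes, no more than 20% mitochondrial UMIs, called doublets removed) left 51013 cells in 36 clusters. Cells were clustered without the class II genes, and clusters were named from markers into 19 classes. Mesothelial, epithelial and B cells came largely from library 5, which held 993 of 1354, 296 of 349 and 310 of 366 of these cells. Library 5 also had the highest share of called doublets (10.1%, against 3.19% to 4.70% elsewhere) and of immune cells (18.1%, against 7.14% to 12.7%). The same barcode sequence occurred in more than 1 library for 705 of the kept cells, and without them the summed level of the 8 genes in macrophages was 23377 instead of 23360.3 CPM (UMIs of a gene per 1000000 UMIs of the same cells).

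Class II transcripts were concentrated in a small part of the tissue. Immune clusters made up 11.7% of cells and held 91.2% of the UMIs of the 8 genes, from 78.2% for H2-DMb1 to 95.2% for H2-Oa. Macrophages alone held 48.4% with 6.77% of the cells. The cDC2 cells, a dendritic cell type specialised in presenting to CD4 T cells, held 13.95% with 0.455% of the cells, and cDC1 cells, the cross-presenting dendritic cells, held 8.29%. An unnamed immune cluster led by Retnla, Chil3 and Ccr2 held 10.99%. Endothelial cells held 2.70%, fibroblasts 1.80% and smooth muscle 1.62%. Over all kept cells, Cd74 was detected in 38.9%, H2-Aa in 25.8%, H2-Ab1 in 25.1%, H2-Eb1 in 23.1%, H2-DMb1 in 10.6%, H2-DMa in 9.21%, Ciita in 2.48% and H2-Oa in 0.917%.

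**Figure D1:**
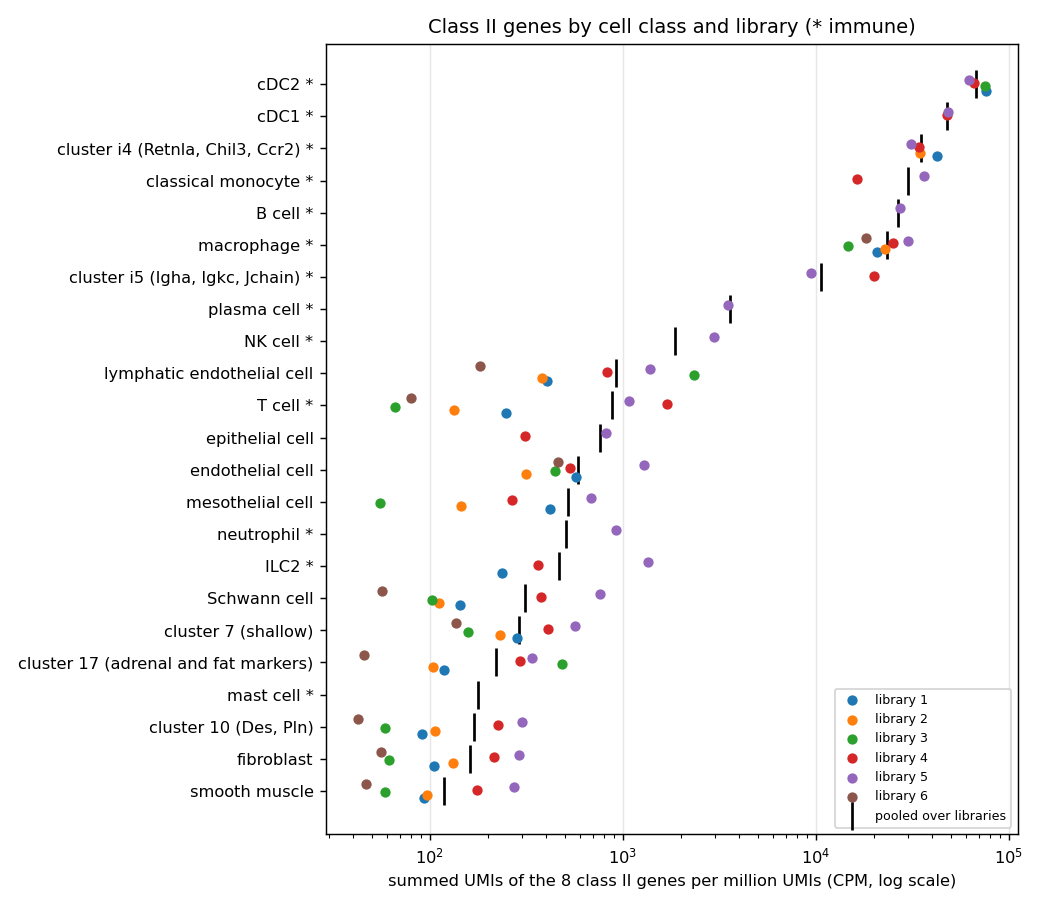
Summed CPM of the 8 class II genes (log scale) in each cell class or unnamed cluster, with 1 point per library that held at least 20 of its cells and a bar for all libraries pooled. The dendritic cells stand at 47803 CPM and above, and smooth muscle and fibroblasts, at 119.0 and 161.2 CPM pooled, spread from 46.5 to 289.2 CPM over libraries.

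In order of pooled level, the 8 genes together reached 67686 CPM in 232 cDC2 cells, 47803 in 142 cDC1 cells, 35208 in the 276 cells of the Retnla cluster, 30127 in 239 classical monocytes, 26710.4 in 366 B cells and 23360.3 in 3455 macrophages. Libraries are counted here where they held at least 20 cells of a class. The 4 libraries with enough cDC2 cells lay between 62068 and 76141 CPM, the 2 with enough cDC1 cells between 47524 and 48370.3, and the 4 with enough cells of the Retnla cluster between 30973 and 42444. The dendritic cell types and macrophages did not overlap. Macrophages read 20656, 22767, 14617, 24986, 30073 and 18212 CPM in libraries 1 to 6. Monocytes could not be placed against macrophages, because library 4 gave 16317 CPM and library 5 gave 36177. Without library 5 the monocyte level was 16202 CPM. The monocyte cluster also held 4696 CPM of 9 summed macrophage markers, against 17098 CPM in macrophages. Their part in its class II level was not tested. B cells were numerous enough in library 5 alone (27091 CPM), which leaves their place beside macrophages unresolved, since macrophages of that library read 30073 CPM.

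The chains and the invariant chain carried most of these counts and followed the same pooled order, with 1 exception. H2-Eb1 was lower in B cells (2956.5 CPM) than in macrophages (3169 CPM). In cDC2 cells Cd74 stood at 36847, 35385, 32777 and 29433 CPM in libraries 1, 3, 4 and 5. In macrophages it stood at 10647, 11818, 7553, 12688, 14866 and 9321 CPM in libraries 1 to 6. Every cDC2 library lay above every macrophage library. Pooled levels in cDC2 cells and macrophages were 32459 and 11852 CPM for Cd74, 12672 and 4381 for H2-Aa, 11471 and 3361 for H2-Ab1, and 8900.4 and 3169 for H2-Eb1. The highest macrophage library was 1.97 times the lowest for Cd74 and 2.10, 2.32 and 2.05 times for H2-Aa, H2-Ab1 and H2-Eb1. Library 5 was the highest and library 3 the lowest for each of these 4 genes.

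Because libraries could not be tied to samples, classes were compared by a rule of size. A gene was called where it reached 10 CPM in either class, its pooled ratio with 2 CPM added to both sides was at least 2, and every library with at least 20 cells of both classes (2 or more libraries) had the same direction. By this rule all 8 genes were higher in cDC2 cells than in macrophages in 4 of 4 libraries, where 6.65% of 9012 measured genes were called higher and 19.9% lower. Ratios ran from 2.74 for Cd74 to 3.80 for H2-DMb1, with H2-Oa at 29.0. Their median was 3.06, against 0.816 for all measured genes. H2-Oa passed the 10 CPM minimum through cDC2 cells alone. In cDC1 cells 6 of 8 were called higher than in macrophages and 0 lower (9.85% and 21.1% of all measured genes), and the median ratio was 2.60 against 0.896. The exceptions were Cd74 and H2-Eb1, at ratios of 1.90 and 1.95, both higher in 2 of 2 libraries. H2-Oa again passed the minimum only through the dendritic cells. In monocytes 7 were measured and 2 called higher and 0 lower (6.61% and 13.6% of all genes), Ciita at 2.06 and H2-DMb1 at 2.15, with a median ratio of 1.39 against 0.933. The other measured members were higher in 1 of 2 libraries. The monocyte count was 5 at resolution 0.3, and 0 with 1000 detected genes required or with medians of libraries. At a ratio of 4, the cDC2 and cDC1 counts fell to 1 each, H2-Oa being the gene with a ratio that large.

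**Figure D2:**
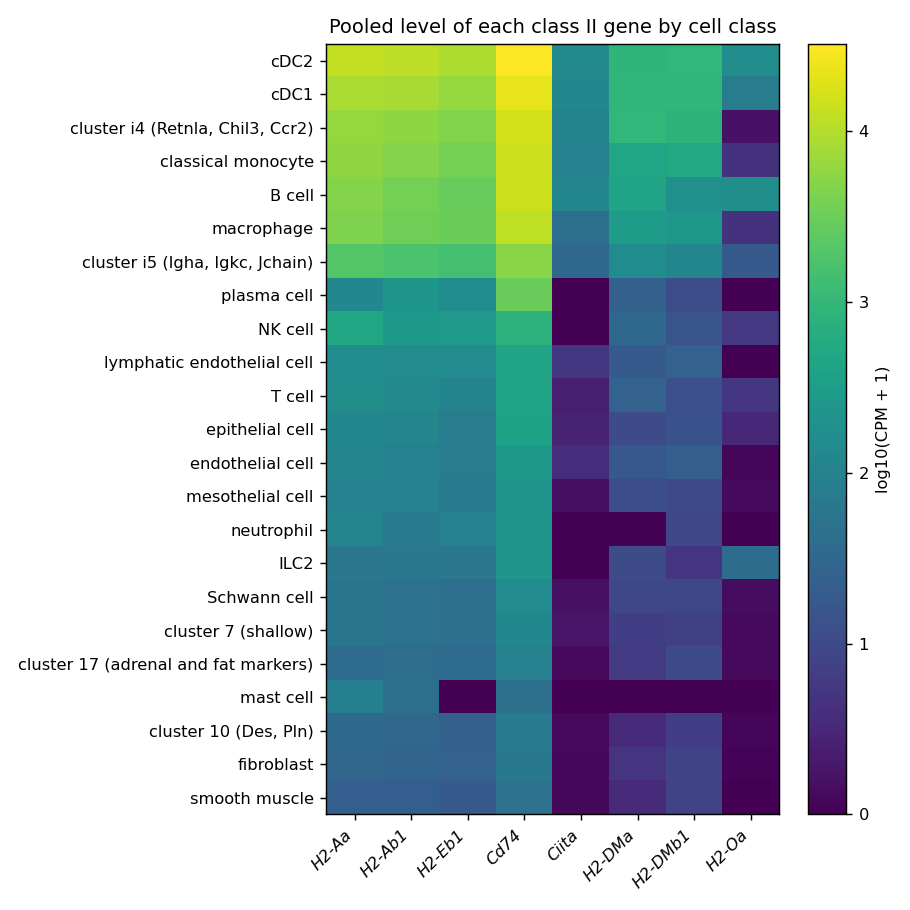
Pooled level of each of the 8 genes (columns, log10 of CPM plus 1) in each class or unnamed cluster (rows, ordered by summed level). The 4 abundant genes fade together from dendritic cells to smooth muscle, H2-Oa is bright only in B cells and dendritic cells, with a weaker signal in ILC2 and cluster i5, and plasma cells keep Cd74 at 3017 CPM while H2-Aa falls to 128.3 CPM.

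Ciita, the coactivator, was sparse but followed its targets. Pooled levels were 135.3 CPM in cDC2 cells, 121.6 in cDC1 cells, 121.6 in B cells, 104.7 in the Retnla cluster, 90.7 in monocytes and 43.1 in macrophages. Macrophages gave 32.3, 40.8, 46.5, 35.1, 53.9 and 55.3 CPM in libraries 1 to 6, from 94 to 237 UMIs each. Library 6, second lowest for Cd74 in macrophages, was highest for Ciita, so the order of libraries was not shared between the 2 genes. The 4 cDC2 libraries, at 152.4, 131.5, 174.0 and 115.7 CPM, all lay above the macrophage ones. Across the 36 clusters Ciita correlated with the chains, Cd74 and the H2-DM genes at Pearson r of 0.928 to 0.970 on log2(CPM + 5), which is a description over clusters that share libraries and differ in depth.

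The peptide exchange genes H2-DMa and H2-DMb1 were highest in dendritic cells and the Retnla cluster. H2-DMa stood at 908.2 CPM in cDC2 cells, 922.3 in cDC1 cells, 989.4 in the Retnla cluster, 456.0 in monocytes, 421.7 in B cells and 294.1 in macrophages. H2-DMb1 stood at 980.0, 942.5, 818.3, 553.8, 179.3 and 256.7 CPM in the same order. Pooled over libraries, B cells were thus above macrophages for H2-DMa and below them for H2-DMb1. Within library 5 the H2-DMa levels were close, at 420.1 CPM in B cells and 397.5 in macrophages. H2-DMb1 stood there at 183.6 and 374.1 CPM. The neighbouring copy H2-DMb2 went the other way from H2-DMb1, with 496.5 CPM in B cells, 260.2 in cDC2 cells and 12.5 in macrophages. Since B cells were numerous in library 5 alone, this difference has no second library behind it.

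H2-Oa was largely restricted to B cells and dendritic cells. It reached 171.2 CPM in B cells, 160.1 in cDC2 cells and 80.4 in cDC1 cells, against 3.60 in macrophages, 3.52 in monocytes and 0.682 in the Retnla cluster, which stood next to cDC1 cells in summed class II level. The 4 cDC2 libraries read 135.9, 154.4, 126.6 and 190.3 CPM, and the macrophage libraries 1.37, 1.84, 0, 2.64, 10.2 and 0.970. Library 5 supplied 45 of the macrophage H2-Oa UMIs. Group 2 innate lymphoid cells (ILC2), which had 464.6 CPM of the 8 genes in all, showed 38.6 CPM of H2-Oa from 19 UMIs (95% interval 23.2 to 60.2), with a UMI in 12.6% of 119 cells, and no Ciita UMI (up to 6.09 CPM allowed by a count of 0). Intervals here and below are exact and cover counting error only. The partner gene H2-Ob was distributed likewise, at 409.1 CPM in B cells, 159.0 in cDC1 cells, 137.3 in cDC2 cells and 10.5 in macrophages. Over clusters, H2-Oa correlated with the other 7 members at r of 0.581 to 0.658, below every correlation among those 7.

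Plasma cells kept the invariant chain and had little of its partners. Cd74 stood at 3017 CPM in 81 plasma cells, against 14509.5 in B cells, while H2-Aa stood at 128.3 against 4703 and Ciita at 0 (up to 2.89 CPM allowed) against 121.6. For 100 Cd74 UMIs, plasma cells held 17.3 UMIs of the 3 chain genes, B cells 77.9, macrophages 92.1 and cDC2 cells 101.8. The 6 macrophage libraries lay between 87.9 and 96.7. The single library with 20 or more plasma cells, library 5, gave 17.5. After each cell was thinned to 2000 UMIs, 44.3% of plasma cells had Cd74 without any chain UMI, against 9.91% of macrophages.

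Detection in single cells differed between antigen-presenting classes. With cells thinned to 2000 UMIs, all of Cd74, H2-Aa, H2-Ab1 and H2-Eb1 were found together in 100% of cDC1 cells, 97.0% of B cells, 94.6% of cDC2 cells, 90.6% of the Retnla cluster, 60.8% of macrophages and 59.6% of monocytes. Macrophages were heterogeneous: 8.46% of 2957 thinned cells had none of the 4, the median was 31 UMIs, and the lowest and highest 10% of cells lay at or beyond 1 and 116 UMIs. A Cd74 UMI was present in 88.5% of thinned macrophages (interval 87.3 to 89.6, unthinned 93.0%). The corresponding share in smooth muscle, taken as background, was 9.79% (9.26 to 10.3, unthinned 33.8%). T cells, which in mice lack class II, had 882.7 CPM of the 8 genes, and 7 of 7 measured members were lower than in macrophages (16.1% of all genes were called lower), by factors of 10.96 to 28.6. At clustering resolution 1.0 the T cell level was 3384 CPM, with 7 members still lower. Their libraries ran from 65.8 to 1697 CPM, the highest being libraries 4 and 5, which also had the largest immune shares.

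Macrophages fell into 6 sub-clusters that differed in resident macrophage genes and class II genes. The sub-clusters were ordered by the summed CPM of 7 resident genes (Lyve1, Folr2, Cd163, Timd4, F13a1, Cbr2 and Pf4). The sub-cluster highest in these, named i1 (1246 cells, 11971 resident CPM), had 18964 CPM of class II genes. The larger i0 (1480 cells, 9285 resident CPM) had 24916 and i8 (234 cells, 7930 resident CPM) had 25167 CPM. The sub-cluster i10 (190 cells, 2167 resident CPM) had 48137 CPM, the highest among the 6, and 57.4% of its cells came from library 5. Lyve1, a hyaluronan receptor of resident macrophages, stood at 128.6 CPM in i10 and 1989.6 in i1.

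The i10 level exceeded that of i1 within each library. It was 58451, 55895, 32589, 40149.9, 49102 and 27049.9 CPM in libraries 1 to 6, of which only libraries 2 and 5 held 20 cells. The i1 values were 15186, 16422, 14552, 21048, 25689 and 18059 CPM. In the comparison of i10 with i1, which was chosen after seeing the data, 6 of 7 measured members were called higher and 0 lower (5.28% and 8.76% of all genes), with a median ratio of 2.52 against 0.935. Ciita was the exception, at 63.9 against 41.1 CPM and higher in 1 of 2 libraries. Since i10 was singled out by its level of these same genes, the count follows in part from that choice and is no separate support. The order was not simply inverse: i11 (186 cells), with the lowest resident level (1957 CPM), also had the lowest class II level, 11543 CPM. That sub-cluster held Igkc at 11440 CPM and the smooth muscle gene Acta2 at 12404 CPM, against 895.8 CPM of Acta2 in i1, and the part of these transcripts in its low class II level was not tested. Between i1 and i11, the comparison set by the highest and lowest resident level, 0 of 8 members were called in either direction, where 11.5% of all genes were called higher and 15.8% lower. Neither i0 nor i8 differed from i1 by the rule, with 0 of 7 and 0 of 8 measured members called (1.91% and 1.44% of all genes higher, 1.84% and 10.8% lower). Cd74 was still higher in i0 than in i1 in 6 of 6 libraries, at a ratio of 1.35.

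**Figure D3:**
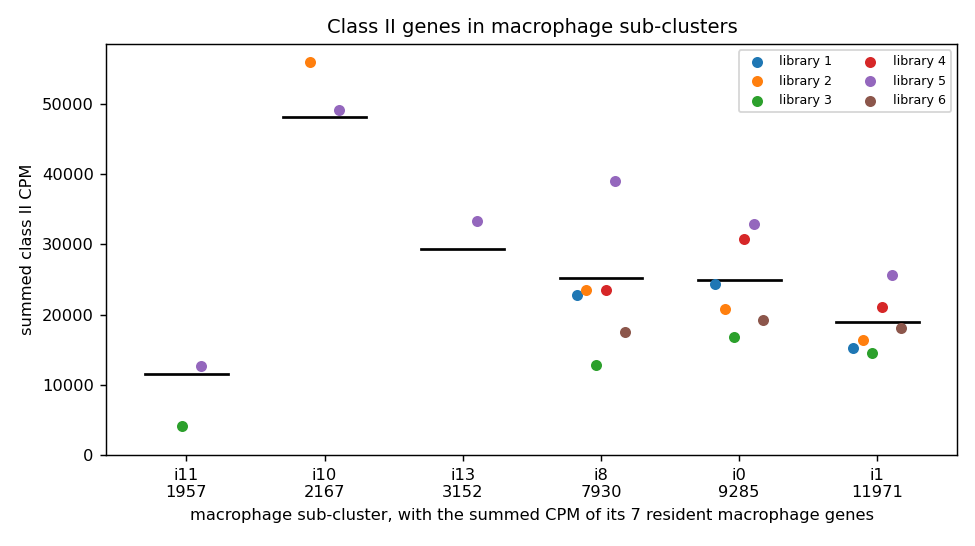
Summed CPM of the 8 class II genes in the 6 macrophage sub-clusters, ordered by the summed CPM of 7 resident macrophage genes printed under each name, with 1 point per library with at least 20 cells and a bar for the pooled level. Sub-cluster i10 stands highest at 48137 CPM, i11 lowest at 11543 CPM, and library 5 is the highest point in i0, i1 and i8.

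In smooth muscle and in fibroblasts as a whole the 8 genes stayed near the level of other leukocyte transcripts. RNA freed from broken cells enters droplets of all kinds, so levels were set beside 2 yardsticks that these cells should lack: 6 pan-leukocyte genes (Ptprc, Laptm5, Coro1a, Cd53, Rac2 and Cd52) and the macrophage C1q genes. Each was expressed as a percent of its level in immune cells. In smooth muscle the members stood at 0.477% (0.231% to 1.03% over libraries), the pan-leukocyte genes at 0.358% and C1q at 0.518%. In fibroblasts the 3 values were 0.646%, 0.474% and 0.738%. A fibroblast cluster of 189 cells led by Tbx20, Wif1 and Prg4, with 188 cells from library 2, stood apart at 298.8 CPM, with 1.20%, 0.327% and 0.475%. The members were 1.33 and 1.36 times the pan-leukocyte percent in these classes, within 1.23 to 1.71 and 1.13 to 1.60 in single libraries. Smooth muscle read 93.0, 96.5, 58.9, 175.9, 271.8 and 46.5 CPM in libraries 1 to 6. From low to high this is libraries 6, 3, 1, 2, 4 and 5, which is also the order of the immune share of all UMIs (5.33% in library 6 to 15.1% in library 5) and of the summed members in fibroblasts. Between smooth muscle and fibroblasts 0 of 4 measured members were called in either direction (14.9% of all genes were higher in fibroblasts and 9.76% lower), with ratios of 1.30 to 1.38.

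H2-DMb1 departed from this pattern. In smooth muscle it stood at 6.82, 6.15, 7.13, 9.13, 10.3 and 5.87 CPM in libraries 1 to 6, so the highest library was 1.76 times the lowest, against 6.32 times for Cd74. In fibroblasts the same factors were 1.62 and 5.82. As a percent of its immune level H2-DMb1 was 2.15% in smooth muscle (1.84% to 2.80%) and 2.18% in fibroblasts, whereas H2-DMa was 0.637% and 0.965%. For 100 Cd74 UMIs there were 2.17 H2-DMb1 UMIs in macrophages (1.85 to 2.52 over libraries), 15.7 in smooth muscle (9.52 to 34.2) and 11.4 in fibroblasts (8.05 to 29.6). The ranges did not overlap with that of macrophages. Among smooth muscle cells without a UMI of any yardstick gene, H2-DMb1 was 7.17 CPM, against 7.47 in all of them.

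**Figure D4:**
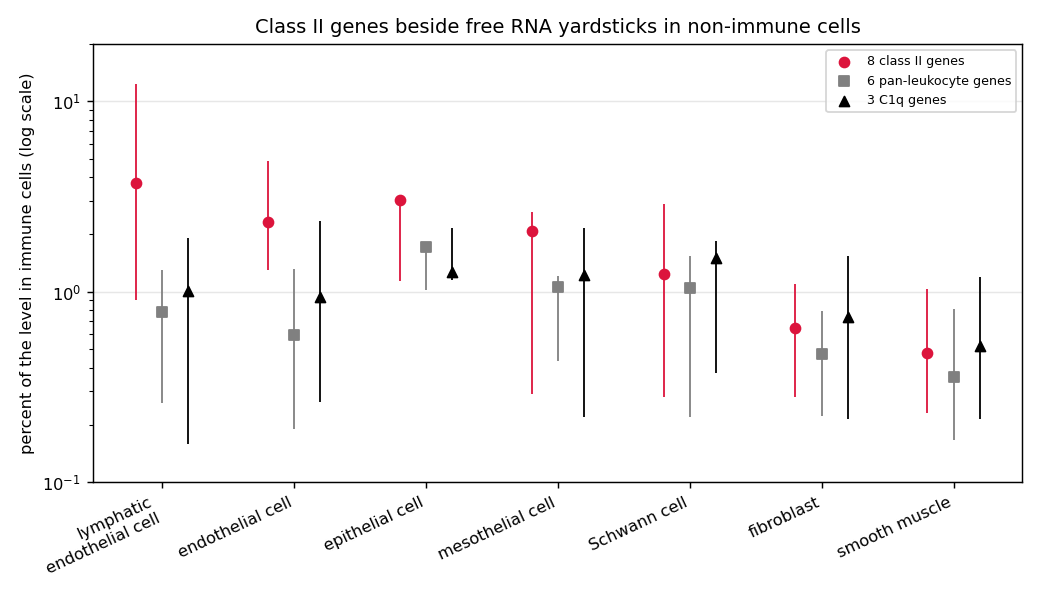
Level of the 8 class II genes, of 6 pan-leukocyte genes and of the 3 C1q genes in non-immune classes, as a percent of the pooled level in immune cells (log scale), with points for pooled values and lines for the lowest to highest library. In lymphatic endothelial and endothelial cells the class II points stand at 3.71% and 2.34%, above both yardsticks, and in smooth muscle the 3 points lie between 0.358% and 0.518%.

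Endothelial cells carried more class II transcript than these yardsticks. The 8 genes together stood at 583.1 CPM in 8404 endothelial cells, or 2.34% of the immune level, while the pan-leukocyte genes stood at 0.593% and C1q at 0.943%. The members were 3.94 times the pan-leukocyte percent, and 2.47 to 12.03 times in single libraries. Cd74 read 253.5, 111.7, 184.5, 227.3, 612.7 and 205.2 CPM in libraries 1 to 6, where smooth muscle read 37.6, 40.3, 23.3, 71.0, 108.6 and 17.2. Every endothelial library lay above every smooth muscle library. Of the 8 genes, 6 were measured and called higher in endothelial cells than in smooth muscle in 6 of 6 libraries (17.9% of all genes), at ratios from 2.55 for H2-DMb1 to 5.21 for Cd74 and a median of 4.05 against 1.09. H2-DMa and H2-DMb1 passed the minimum through endothelial cells alone. Ciita and H2-Oa stayed below 10 CPM, but Ciita at 2.87 CPM (2.39 to 3.42) was above its smooth muscle level of 0.251 (0.172 to 0.354) in 6 of 6 libraries. Its endothelial libraries read 3.33, 1.01, 1.57, 1.19, 9.80 and 2.16 CPM, and 59 of its UMIs came from library 5. In the 5729 endothelial cells without a UMI of any yardstick gene, a group defined after seeing the data, the 8 genes stood at 517.4 CPM and Ciita at 2.89 CPM. The same selection left the 8 genes at 100.2 CPM in smooth muscle, against 119.0 in all its cells. In fibroblasts it left 142.1 against 161.2 CPM. Most of the level was thus kept in each of these classes, and the source of the transcripts was not tested.

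Epithelial and mesothelial cells, which came largely from library 5, were also above both yardsticks when libraries were pooled. Epithelial cells had 758.0 CPM of the 8 genes, or 3.04% of the immune level, against 1.71% for pan-leukocyte and 1.27% for C1q genes. Mesothelial cells had 522.8 CPM, or 2.10%, against 1.06% and 1.23%. Mesothelial members exceeded both yardsticks in libraries 1 and 5 but not in libraries 2, 3 and 4. In library 2 they stood at 0.599%, against 0.627% for pan-leukocyte and 1.006% for C1q genes. In library 3 they stood at 0.292% against 0.440% and 0.221%, and in library 4 at 0.984% against 0.911% and 1.215%. Epithelial cells of library 4 stood at 1.141% against 1.025% and 1.148%. A further yardstick was 3 B cell genes (Cd79a, Cd79b and Ms4a1). Pooled over libraries, it exceeded the members in epithelial (6.15%) and mesothelial cells (3.19%). Within library 5 it lay below the members, at 3.079% against 3.103% in epithelial and 2.133% against 2.613% in mesothelial cells. In mesothelial cells of library 2 it lay above, from 2 UMIs, and in libraries 1, 3 and 4 it had 0 UMIs. Pooled, it was below the members in endothelial (0.585%) and lymphatic endothelial cells (1.32%). In lymphatic cells of libraries 1, 2 and 4 it lay above, from 7, 3 and 5 UMIs. It also lay above in the largest fibroblast cluster, at 0.858% against 0.608%. The part of B cell RNA in these levels was not tested.

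Lymphatic endothelial cells had the highest pooled level among non-immune classes and a wide spread between libraries. The 8 genes stood at 925.0 CPM in 1571 cells, with 404.0, 382.4, 2326, 831.2, 1382 and 181.5 CPM in libraries 1 to 6. Libraries 3 and 5 were high and library 6 low, and the highest was 12.8 times the lowest. Relative to immune cells this was 3.71% (0.900% to 12.3%), or 4.72 times the pan-leukocyte percent and 2.34 to 29.0 times in single libraries. Ciita stood at 4.49 CPM (3.32 to 5.94), with 2.66, 8.85, 4.995, 3.20, 5.19 and 4.86 CPM in libraries 1 to 6, and no H2-Oa UMI was found (up to 0.275 CPM allowed). Again 6 members were measured and higher than in smooth muscle in 6 of 6 libraries (18.9% of all genes), from 2.85 for H2-DMb1 to 8.59 for Cd74, with a median of 6.59 against 1.12. H2-DMa and H2-DMb1 passed the minimum through lymphatic cells alone. The vascular and lymphatic endothelial levels overlapped between libraries, since library 6 was lower in lymphatic cells (181.5 against 460.3 CPM) and library 3 higher (2326 against 445.3 CPM). Schwann cells had 311.0 CPM, with 3 of 4 measured members called higher than in smooth muscle (17.5% of all genes) and a median ratio of 2.32 against 1.16, but at 1.19 times the pan-leukocyte percent. That count was 1 with 1000 detected genes required and 0 with medians of libraries. The Schwann cell members lay below the pan-leukocyte percent in libraries 1 (0.580% against 1.116%) and 4 (1.379% against 1.532%). They lay above it in libraries 2, 3, 5 and 6, and in library 5 stood at 2.884% against 1.492%.

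The endothelial signal was spread unevenly over cells. Cells were split, after seeing the data, at 10 UMIs of Cd74, H2-Aa, H2-Ab1 and H2-Eb1 together, and the levels of these genes on either side follow from the split. Above it lay 517 of 8404 endothelial cells (6.15%), which held 59.2% of the UMIs of the 4 genes in the class, with 244 cells between 8 and 12 UMIs. The 4 genes still stood at 249.0 CPM in the other endothelial cells, against 108.8 CPM in all smooth muscle cells. In libraries 1 to 6 they were 6.53%, 3.06%, 6.97%, 4.75%, 11.2% and 6.36% of endothelial cells. In smooth muscle, whose cells are deeper, 0.380% lay above the split. The cells above were deeper than the other endothelial cells, with a median of 7629 against 4079 UMIs. At a fixed depth of 2000 UMIs, 4.64% of endothelial cells had 5 or more UMIs of the 4 genes, and 0.188% of smooth muscle cells. Endothelial markers summed to 6932 CPM above the split and 6818 below it. Pan-leukocyte genes summed to 37.2 and 17.1 CPM and C1q genes to 117.4 and 65.8 CPM, and the part of leukocyte RNA in these cells was not tested. Of the 517 cells, 427 had no pan-leukocyte UMI. Ciita, which was not used in the split, had a UMI in 8.70% of cells above it (6.42 to 11.5) and 0.507% below (0.363 to 0.690). The H2-DM genes together stood at 154.6 and 23.3 CPM.

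The 3 endothelial clusters differed in how these cells were distributed. In cluster 5, led by Cytl1, Gkn3, Gja5 and Bmx, 281 of 3069 cells (9.16%) lay above the split, and its class II level was 950.9, 358.5, 710.1, 643.2, 907.2 and 739.0 CPM in libraries 1 to 6. In cluster 6, led by Lrg1, Selp and Plvap, 189 of 2077 cells (9.10%) did so, and the level was 543.4, 444.6, 367.3, 767.5, 1328 and 600.4 CPM. Both clusters were above smooth muscle of the same library in 6 of 6 libraries. In cluster 4, led by Gpihbp1, Rbp7, Cd300lg and Car4, 47 of 3258 cells (1.44%) lay above the split, and 35 of these were in library 5. The level of cluster 4 was 162.5, 112.7, 140.9, 277.9, 2013 and 65.9 CPM, so library 5 exceeded the next library by more than the range of the other 5. Ciita had a UMI in 44.7% of the 47 cells, and they held 46 of the 81 Ciita UMIs of all endothelial cells above the split. Endothelial markers summed to 7337 CPM in these 47 cells and 6218 in the rest of the cluster.

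Among lymphatic endothelial cells, 202 of 1571 (12.9%) lay above the split and held 79.0% of the UMIs of the 4 genes. The share was 34.2% in library 3, 19.4% in library 5 and 2.02% in library 6. Their median depth was 10292 UMIs against 5301. Ciita had a UMI in 11.4% of them and 1.02% of the others. These cells also had more class I transcripts, the parallel route that shows peptides to CD8 T cells: 8 of 13 class I genes were called higher (2.38% of all genes), over the 3 libraries with 20 cells on both sides, with a median ratio of 2.30 against 1.01. H2-K1, a class I heavy chain, stood at 3523 CPM above the split and 1166 below, B2m, its light chain, at 2609 and 983.8, and the immunoproteasome subunit Psmb8 at 399.0 and 111.6. The lymphatic receptor gene Lyve1 stood at 240.3 CPM above the split and 1997 below, and the chemokine scavenger Ackr4 at 537.1 and 92.6, the latter named after its values were seen. Lyve1 is 1 of 6 lymphatic marker genes, and the others are not given here. Pan-leukocyte genes summed to 44.5 CPM above the split and 19.99 below, with 1 of 2 measured genes called higher. The part of leukocyte RNA in these cells was not tested. Of the interferon gamma response genes, 2 of 9 measured were called higher. Without library 3, 5 class I genes were called. In vascular endothelial cells split in the same way, 0 of 13 class I genes were called (0.553% of all genes higher, 2.23% lower), with a median ratio of 1.36 against 1.01. Whether the 2 endothelial classes differ in this was not tested.

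**Figure D5:**
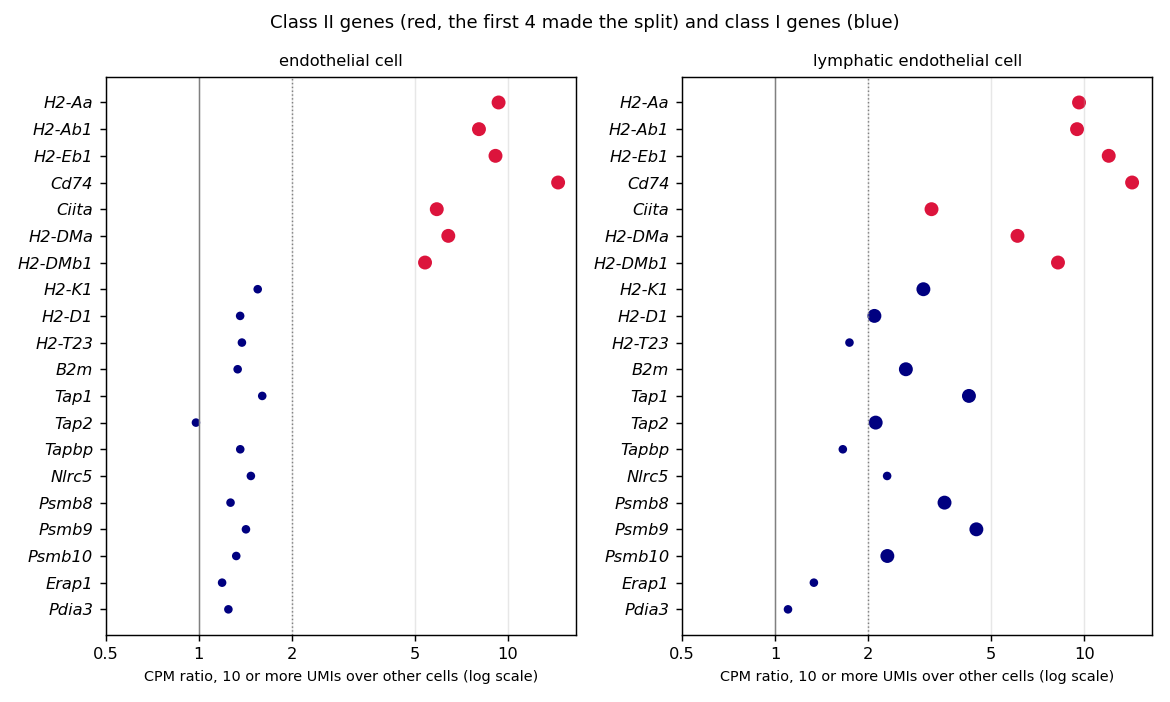
Ratio of CPM in cells with 10 or more UMIs of Cd74, H2-Aa, H2-Ab1 and H2-Eb1 over the other cells of the class (log scale), for class II genes (red) and 13 class I genes (blue) in vascular (left) and lymphatic (right) endothelial cells. Large points mark genes called by the size rule: 0 of 13 class I genes on the left and 8 of 13 on the right, while the red ratios of the 4 genes used follow from the split.

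Other genes of the pathway were counted by list. In cDC2 cells against macrophages, 1 of 7 measured genes of invariant chain processing was called higher and 4 lower (6.65% and 19.9% of all genes). Ifi30, the lysosomal thiol reductase, stood at 1731 against 294.1 CPM. The lysosomal proteases Ctsd (63.5 against 754.1 CPM), Lgmn (78.0 against 641.3) and Ctsl (59.4 against 355.5) and the ubiquitin ligase gene March8 were lower. Ctss, which trims the invariant chain in antigen-presenting cells, stood at 1133 against 925.3 CPM and was not called. In cDC1 cells 0 of 7 were higher and 5 lower (9.85% and 21.1% of all genes), among them Ctss at 355.5 CPM. Of the 10 genes of class II transcription (the RFX and NF-Y subunits, Creb1, Spi1, Irf4 and Irf8), 1 was higher in cDC2 cells, Irf4 at 85.7 against 30.9 CPM, a share near that of all genes. In cDC1 cells 9 were measured, with Irf8 higher at 1450 against 160.8 CPM and Irf4 lower. Rfx5, the DNA-binding RFX subunit, was at 12.9 CPM in cDC2 cells and 7.40 in macrophages, and not called. In endothelial cells against smooth muscle, 12 of 13 class I genes and 7 of 10 measured interferon gamma response genes were higher and 1 of the latter lower (17.9% and 12% of all genes), while 0 of 5 processing genes and 2 of 7 transcription genes were higher. Among them were H2-K1 at 1701 against 157.0 CPM, Irf1 at 238.0 against 26.3 and Gbp2 at 126.2 against 17.1. Fibroblasts, where no member was called over smooth muscle, had 10 of 12 measured class I genes higher than smooth muscle (14.9% of all genes).

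Genes distributed most like the summed members were sought by Pearson correlation of log2(CPM + 5) over the 36 clusters, among 8922 genes reaching 50 CPM in some cluster. The 10 nearest were Cd83 (r = 0.969), Pld4 (0.954), Ly86, Ctss, Ms4a6c (0.940), Irf5 (0.934), Fgd2 (0.934), Cd86, Unc93b1 (0.928) and March1 (0.925). The clusters share libraries and differ in depth, and the values describe likeness of distribution alone. Cd83, a surface protein of activated antigen-presenting cells, stood at 1028 CPM in cDC2 cells and 798.1 in macrophages. Cd86, a costimulatory ligand, was lower in cDC2 cells than in macrophages, at 151.8 against 339.6 CPM, although the members were higher there.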

How the data were processed

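Per the file headers, the authors deposited 1 matrix of UMI counts written by cellranger 6.1.2. The submitters' processing notes name bcl2fastq 5.01, Cell Ranger 3.1.0, Seurat 3.1.1 and GRCm38. Depth equalisation between libraries is not mentioned there. GENCODE M21 held 55450 of 55450 identifiers.

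The filters were 500 detected genes, 20% mitochondrial UMIs and Scrublet doublet calls per library. Leiden clustering (resolution 0.5, 30 components, 20 neighbours, 2000 variable genes, list genes left out) was repeated within immune cells, and clusters were named from marker lists. A cluster stayed unnamed with fewer than 3 markers, low depth or leading genes of another list (4 clusters, 3858 cells). UMIs were then summed by class and library and given as CPM. On simulated counts of 2000 genes the size rule recovered 100% of 4-fold increases, 92% of 4-fold decreases, 2% of 1.5-fold increases and 0 of 1800 unchanged genes. The simulation used 6 libraries with little noise between them. These shares therefore do not describe comparisons that rest on 2 libraries or on few cells. Named genes are the members, up to 4 genes per list, the 10 nearest in distribution and the genes leading a cluster; others were chosen after seeing values. Members, lists and rules were chosen with earlier results of these data known. Tools were Python 3.11.15, scanpy 1.11.5, leidenalg 0.10.2, numpy 2.4.6, scipy 1.17.1 and pandas 2.3.3. Where labels name separate samples, separate animals are not stated. Alternatives were other filters, resolutions, ratios, depths and leaving out libraries.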

Additional observations from a re-analysis of the deposited data

Results flagged for a closer look

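The summed level of the 8 class II genes in endothelial cells of library 5, 1283.2 CPM, stood apart from the other 5 libraries, which lay between 314.0 and 572.5 CPM. It was picked out because its gap to the nearest library was large for the range of 6 libraries, and it was 1 of 13 classes with 4 to 6 libraries of at least 20 cells. Chance picks out about 1 in 20 such groups. Within the class, the Gpihbp1 cluster of library 5 read 2013 CPM against 65.9 to 277.9 CPM elsewhere, while the Cytl1 cluster of library 5, at 907.2 CPM, lay inside the range of the other libraries. In the Lrg1 cluster library 5 was also the highest, at 1328 CPM, and library 3 the lowest, at 367.3 CPM. Library 5 also had the highest pan-leukocyte level in endothelial cells, at 1.32% of the immune level, and their part in the result was not tested.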

How the results depend on the processing

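Of 629 recomputed values, 589 kept their direction and call or moved by less than the spread between libraries, 29 levels or shares moved by more, 10 counts fell and 1 rose by more than 1.5 times, and none reversed. The number of members higher in monocytes than in macrophages, 2, became 0 with 1000 detected genes required, 1 with at most 10% mitochondrial UMIs, 5 at resolution 0.3, 0 with medians of libraries and 0 at a ratio of 4. For Schwann cells against smooth muscle it went from 3 to 1 with 1000 genes, 0 with medians and 0 at a ratio of 4, and was 2 to 3 when each library was left out. At a ratio of 4 it was 1 for cDC2 cells and 1 for cDC1 cells. The class I genes called in lymphatic endothelial cells above the split numbered 5 to 10 when each library was left out, with 5 without library 3. Leaving out each library gave 470.8 to 642.7 CPM of the members in endothelial cells (lowest without library 5), 82.7 to 139.0 in smooth muscle and 21398 to 24397 in macrophages. The monocyte level was 39637 CPM with 200 detected genes and 44721 at resolution 0.3, and the T cell level 3384 CPM at resolution 1.0, and the cause was not tested. The cDC1 level was 38533 CPM with 200 detected genes and 40626 with doublets kept. Thinned to 1000 UMIs, a Cd74 UMI was found in 84.1% of macrophages and 5.21% of smooth muscle cells. No paired analysis was possible because the suffixes match no sample. B cells against macrophages and the cycling macrophage sub-cluster i13 could not be compared, with 1 library each. CCR7 dendritic cells, plasmacytoid dendritic cells, nonclassical monocytes and pericytes were not found as classes. Depth limits Ciita and H2-Oa outside immune cells, where single libraries hold few UMIs.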
